A study of Mus musculus with 5 samples.

Results

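Primitive erythroid cells are the first red blood cells of the embryo, and here they were the cells of the dissected ocular area that carried large amounts of haemoglobin RNA. They were chosen by a rule on that RNA: a barcode was kept when at most 10% of its UMIs came from mitochondrial genes and at least 5% came from genes whose symbols start with Hba- or Hbb-. A UMI is a molecular tag that counts 1 captured RNA molecule, and a barcode marks the droplet of 1 presumed cell. The rule kept 263 of 8194 barcodes. Because globin RNA chose the cells, globin levels and all differences from other cells given here describe the chosen cells and carry no test.

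The study profiled the ocular area of wild-type C57BL/6J mouse embryos by droplet single-cell RNA sequencing at 12, 16, 20, 24 and 26 somites, with 1 embryo at each stage and no treatment. Both optic areas of the embryo were dissected with a needle and dissociated with trypsin, so blood present in the tissue was taken along. The counts of all stages were pooled in a single matrix of 5 libraries, told apart by a number from 1 to 5 at the end of each barcode. The stage of each library was not given in the sources used here, so the libraries are named by that number, no order of stages is implied, and values are given library by library. With 1 embryo per stage there was no replicate, and all intervals below cover counting error only.

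Primitive erythroid cells arise from mesoderm in the blood islands of the yolk sac and enter the circulation once the heart beats. They still carry a nucleus, divide in the bloodstream and mature there as a cohort while they fill with haemoglobin, a tetramer of alpha-like and beta-like globin chains that each hold a haem group. Their hallmark is the use of embryonic globins: the alpha-like zeta chain of Hba-x and the beta-like chains of Hbb-y and Hbb-bh1.

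The chosen barcodes and the rest were separated by a gap in globin share, the value that chose them. Their globin share ran from 8.18% to 56.0% of UMIs with a median of 35.9%, and the library medians were 27.5%, 37.7%, 35.9%, 40.01% and 32.0% for libraries 1 to 5. The 3 barcodes just inside the limit of 5% held 8.18%, 8.23% and 9.96% globin, and the 3 just outside held 2.48%, 1.83% and 1.43%. No barcode lay between 2.48% and 8.18%, but the 3 just inside also carried genes of other cells, as given below. Libraries 1 to 5 gave 47, 100, 38, 38 and 40 erythroid barcodes. These were 3.62%, 6.08%, 1.90%, 2.55% and 2.29% of the barcodes kept in each library, and 3.22% over all libraries (95% exact Clopper-Pearson interval 2.85% to 3.62%). Library 2 had the largest share, with an interval of 4.97% to 7.34% that lay above those of the other libraries, the nearest being 2.67% to 4.79% in library 1. The share counts barcodes of a dissected piece of tissue, and how much blood was taken with each piece was not measured.

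**Figure D1:**
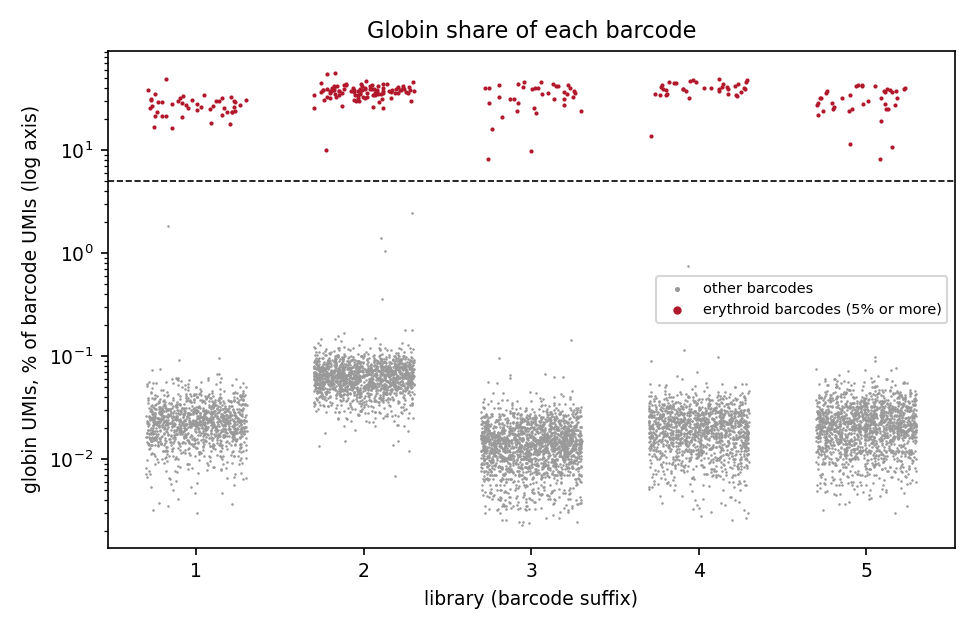
Each point is 1 barcode, placed by its library and by the share of its UMIs from globin genes (log axis); red points are erythroid barcodes and grey points other barcodes, and barcodes without a globin UMI are not drawn. The red points lie between 8.18% and 56.0%, and the grey cloud of library 2 lies above those of the other libraries.

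The matrix held 41694822 to 72925591 UMIs per library. Erythroid barcodes had a median of 42576 UMIs against 27242 in other barcodes, but without globins the medians were 27370 and 27238. Mitochondrial genes took a median of 1.55% of all UMIs, globins included, in erythroid barcodes and 1.69% in other barcodes. On the scale without globins the order was reversed: mitochondrial transcripts summed higher in erythroid than in other barcodes of every library, as given below. Globin RNA was not confined to the chosen barcodes: 97.8% of the others had at least 1 globin UMI, at a median share of 0.0213%, and library 2 had the highest level, 666 CPM (a gene's UMIs scaled to the same total in every library) against 144 to 243 CPM in the others. The erythroid barcodes held 98.3% of all globin UMIs. The same 16-base barcode sequence occurred in more than 1 library 40 times, which touched 3 erythroid barcodes, and 0 sequences were shared between erythroid barcodes of different libraries.

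Markers of neuroepithelium, crest and mesenchyme were low in erythroid barcodes. Summed over 12 neuroepithelial genes, libraries ranged from 17.9 to 72.4 CPM against 553 to 1284 CPM in other barcodes, and 9 of 10 tested genes were lower by the rule given below. The 12 crest and mesenchyme genes ranged from 29.3 to 143 CPM against 841 to 1266 CPM, with 7 of 9 lower. Over all tested genes 12.5% were lower. The 10 endothelial genes ranged from 45.8 to 224 CPM against 190 to 236 CPM, and the 10 megakaryocyte genes from 26.5 to 219 CPM against 3.24 to 50.3 CPM, with Ppbp at 0 UMIs in erythroid barcodes. The top values rested on single barcodes: 1 barcode of library 4 held 82.4% of its endothelial UMIs, and 1 of library 3 held 76.1% of its megakaryocyte UMIs. In erythroid barcodes with at least 20% globin the ranges were 40.4 to 58.5 CPM for endothelial and 27.3 to 31.9 CPM for megakaryocyte genes. The megakaryocyte sum thus stayed above that of other barcodes in libraries 1, 2 and 5 (4.60, 17.2 and 3.24 CPM). Only 1 of the 10 megakaryocyte genes was abundant enough to be tested by the rule given below, and it was higher, so the sum does not describe the set as a whole. The megakaryocyte sum lay below that of other barcodes in libraries 3 and 4 (35.6 and 50.3 CPM).

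The label was checked on the markers set for it, of which Alas2 alone was outside the rule. Alas2, the erythroid enzyme that starts haem synthesis, had a UMI in 99.2% of erythroid barcodes and in 1.96% of the others, at median depths of 27370 and 27238 UMIs without globins. Its level, in CPM computed without globin UMIs, was 1050, 1345, 1160, 1437 and 1556 in erythroid barcodes of libraries 1 to 5 and 0.322 to 1.41 in the other barcodes. In summed counts Alas2 was therefore high in erythroid barcodes of every library. Single barcodes did overlap: in library 2, 98 of 100 erythroid barcodes had an Alas2 UMI and the lowest stood at 0 CPM. White-cell and progenitor genes were low: 12 myeloid markers summed to 2.58 CPM and 12 blood progenitor markers to 23.2 CPM, against 21.1 and 94.8 CPM in other barcodes. Runx1 and Cd34 gave the most of the progenitor sum, 10.0 and 5.84 CPM. Cd34 was also high in the barcodes with endothelial genes described below, at 516 CPM. A single barcode of library 4 held 82.8% of the progenitor UMIs of that library. With at least 20% globin required, the progenitor sum of library 4 went from 49.6 to 9.09 CPM. Of the myeloid markers 7 had 0 UMIs in erythroid barcodes, and of the progenitor markers Ptprc, Spn, Mpo and Hoxa9 had 0, which allows a level of up to 0.407 CPM (3 counts over all erythroid barcodes).

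Hbb-y, the gene of the embryonic epsilon-y chain, was the most abundant globin in every library, at 34.2%, 36.3%, 41.5%, 41.2% and 40.3% of erythroid globin UMIs in libraries 1 to 5. Hbb-bh1, the other embryonic beta-like gene, took 27.8%, 22.4%, 21.9%, 19.4% and 17.0%. Hba-x took 21.1%, 22.8%, 22.4%, 22.1% and 20.1%. Embryonic genes together made up 77.4% to 85.9% of globin UMIs, lowest in library 5 and highest in library 3. The alpha genes Hba-a1 and Hba-a2, which serve the embryo, the fetus and the adult, took 9.19% to 14.9% and 4.44% to 7.09%. Their near-identical sequences make the split between that pair uncertain.

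The balance between the embryonic beta genes differed most clearly between libraries 1 and 5. The ratio of Hbb-bh1 to Hbb-y was 0.813, 0.618, 0.528, 0.472 and 0.423 in libraries 1 to 5, and the counting interval of library 1, 0.808 to 0.819, lay far from that of library 5, 0.420 to 0.427. The same ratio in the globin UMIs of the other barcodes was 0.777, 0.566, 0.408, 0.393 and 0.310, in the same order of libraries. Per cell, the ratio ran from 0.534 to 2.20 in library 1 and from 0.340 to 0.528 in library 5, so no cell of library 5 reached the lowest cell of library 1. More Hbb-bh1 than Hbb-y was found in 12 of 47 cells of library 1, 6 of 100 of library 2 and 0 cells of libraries 3, 4 and 5. The ratio of alpha-like to beta-like UMIs was 0.585, 0.678, 0.564, 0.638 and 0.728, so beta-like RNA was in excess in every library.

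Adult-type beta globin RNA was scarce and uneven. Hbb-bs took 0.832%, 0.691%, 0.354%, 0.158% and 0.183% of globin UMIs in libraries 1 to 5, and Hbb-bt took 0.237%, 0.122%, 0.158%, 0.194% and 0.357%. Hbb-bs thus exceeded Hbb-bt in libraries 1, 2 and 3 (ratios 3.51, 5.64 and 2.25) and lay below it in libraries 4 and 5 (0.811 and 0.514). These genes are also similar in sequence, and how reads matching both were counted was not given in the sources used here. Single cells differed widely: in library 1 the Hbb-bs share ran from 0% to 7.13% with a median of 0.313%, and 1 cell held 19.3% of all Hbb-bs UMIs of that library. The theta-type gene Hbq1b, an alpha-like globin gene that the rule did not use, stood at 56.5, 64.8, 86.4, 91.4 and 88.4 CPM without globins and at 0.0244 CPM over all other barcodes. It has a close copy, Hbq1a, so its level is uncertain.

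**Figure D2:**
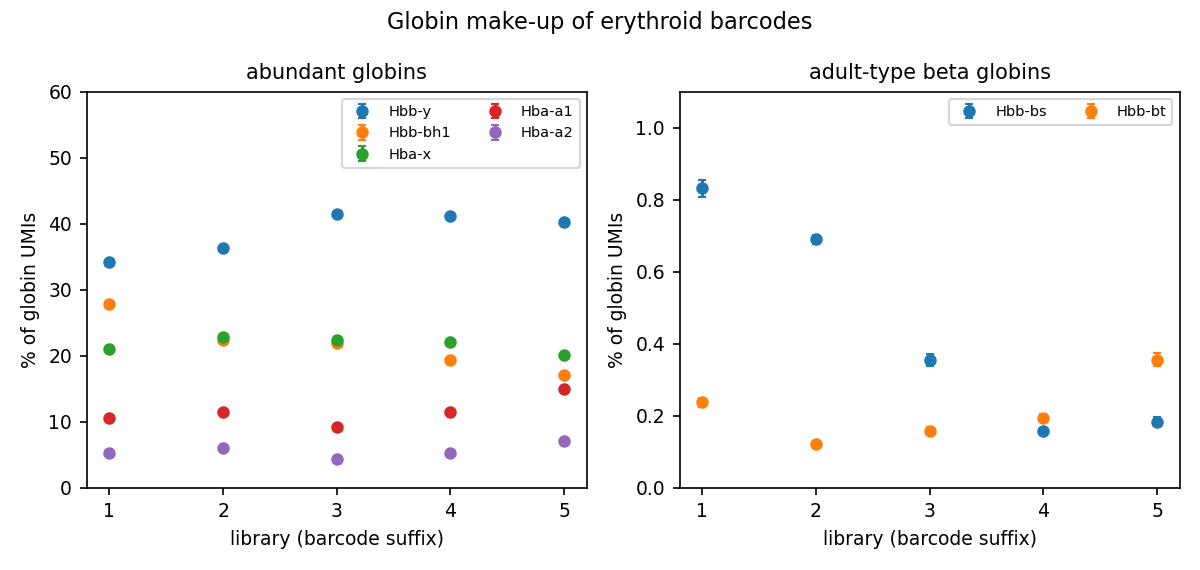
Share of each globin gene (% of all globin UMIs of erythroid barcodes, linear axes from 0) by library, with 95% exact binomial bars that are mostly smaller than the points. Hbb-bh1 is highest in library 1 at 27.8% and lowest in library 5 at 17.0%, and Hbb-bs lies above Hbb-bt in libraries 1 to 3 only.

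Outside the globins, the erythroid barcodes were compared with the other barcodes of the same library. Each library gave a log2 ratio of CPM without globins after 10 CPM was added to both sides, which pulls the ratios of low genes towards 0. A gene is called higher or lower here when it differed at least 2-fold that way in each of the 5 libraries. Of 5397 genes with at least 20 CPM on either side, 249 (4.61%) were higher and 672 (12.5%) were lower in erythroid barcodes. These shares are the background for each count of higher and lower genes in a list. The median log2 ratio over all tested genes was -0.27. After thinning each barcode to 5000 non-globin UMIs, 50 genes took 30.3% of UMIs in erythroid and 26.1% in other barcodes, with medians of 1626 and 1877 genes detected.

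Counting globins in the total moved the median log2 ratio of tested genes to -0.73 and the calls to 160 higher and 1136 lower, so higher genes made up 12.3% of calls in place of 27.0%. Of the 133 called genes of the lists and rankings described here, 120 kept their call on that scale. Among the 13 that lost it were Abcb6, Ccnd3, Eif2ak1, Fbxo7, Hk1, Itga2b, Lmo2, Mki67, Nfs1, Pabpc4, Slc25a39 and Xk.

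Among the 15 genes with the highest median ratio were Alas2, Blvrb, Cited4, Mgst3, Car2, Smim1, Acp5, Hebp1, Cpox, Klf1, Slc4a1, Hemgn, Mt2 and Slc25a37. Cited4, a transcriptional cofactor gene (GRCm38 chromosome 4, 120666572 to 120667820), stood at 1264, 1165, 1018, 1120 and 990 CPM in libraries 1 to 5 and at 0.909 to 2.34 CPM in other barcodes. It had a UMI in 263 of 263 erythroid barcodes. Acp5, an acid phosphatase gene better known from osteoclasts, reached 412 to 532 CPM against 0.462 to 0.927 CPM, a 784-fold difference over summed libraries (interval 666 to 929). Hemgn, which encodes the blood-specific nuclear protein hemogen, was 2183-fold higher (interval 1579 to 3108).

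The 10 genes with the lowest ratio were Crabp1, Id3, Mest, Meg3, Crabp2, H2afy2, Sox11, Marcksl1, Igfbp4 and Nnat. Crabp1, a retinoic acid binding protein gene, stood at 12.6, 21.5, 50.1, 24.8 and 20.2 CPM in erythroid barcodes against 308 to 843 CPM. Meg3, an imprinted long noncoding RNA, was 44.8-fold lower (interval 36.4 to 55.9). The erythroid level of Crabp1 was highest in library 3, where crest and mesenchyme markers summed to 143 CPM against 29.3 to 41.0 CPM in the other libraries, and 2 barcodes of library 3 held 107 of those 134 marker UMIs. With at least 20% globin required, Crabp1 stood at 13.7, 21.6, 23.7, 25.5 and 15.4 CPM.

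The most abundant RNAs other than globins were those of ribosomal proteins, led by Rpl41 at 9496 CPM against 9844 CPM in other barcodes, and of ferritin heavy chain, Fth1, at 8879 CPM. The most abundant ribosomal protein genes were not called, but all of them except Rpl41 stood somewhat above their level elsewhere over summed libraries. Rps2 (9460 against 7765 CPM) was 1.22-fold and Rpl14 (7161 against 4696 CPM) 1.52-fold higher. Fth1 alone of the 3 most abundant genes was called higher.

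Promoters of genes that carry the erythroid pattern are shown to put the letters beside the levels. RefSeq promoter windows of GRCm38.p6 were searched over the 250 bases before the start on both strands. One class of words was that bound by GATA factors (AGATAA or AGATAG, and likewise TGATAA or TGATAG) and the other the CACCC-type word bound by KLF factors (CCNCNCCC, which also matches many GC boxes). In the next lines the 200 bases before each start are printed 5′ to 3′ in the direction of transcription, with every match of either word in capitals. A match on the other strand appears as its reverse complement. The order is Hba-x (chr11:32276400-32276599, plus strand), Hbb-y (chr7:103853208-103853407, minus), Alas2 (chrX:150547217-150547416, plus), Klf1 (chr8:84901782-84901981, plus), Epor (chr9:21963577-21963776, minus), Cpox (chr16:58670008-58670207, plus), Hbb-bs (chr7:103827929-103828128, minus) and Hbb-bt (chr7:103813924-103814123, minus).
Hba-x: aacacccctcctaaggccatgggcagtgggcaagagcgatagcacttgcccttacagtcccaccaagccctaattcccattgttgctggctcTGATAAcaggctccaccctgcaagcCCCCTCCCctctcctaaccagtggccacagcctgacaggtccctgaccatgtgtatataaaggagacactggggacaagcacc
Hbb-y: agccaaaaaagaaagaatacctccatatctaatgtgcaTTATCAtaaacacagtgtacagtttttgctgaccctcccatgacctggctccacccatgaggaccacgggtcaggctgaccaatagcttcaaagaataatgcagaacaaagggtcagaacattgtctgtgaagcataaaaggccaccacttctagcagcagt
Alas2: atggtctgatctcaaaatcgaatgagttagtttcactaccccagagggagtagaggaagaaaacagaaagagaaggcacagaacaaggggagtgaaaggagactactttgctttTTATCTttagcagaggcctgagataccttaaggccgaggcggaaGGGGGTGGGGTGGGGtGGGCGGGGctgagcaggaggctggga
Klf1: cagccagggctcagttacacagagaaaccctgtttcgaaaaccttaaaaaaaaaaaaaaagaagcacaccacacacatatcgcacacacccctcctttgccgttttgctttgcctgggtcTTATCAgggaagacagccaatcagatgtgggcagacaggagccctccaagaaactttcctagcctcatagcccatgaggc
Epor: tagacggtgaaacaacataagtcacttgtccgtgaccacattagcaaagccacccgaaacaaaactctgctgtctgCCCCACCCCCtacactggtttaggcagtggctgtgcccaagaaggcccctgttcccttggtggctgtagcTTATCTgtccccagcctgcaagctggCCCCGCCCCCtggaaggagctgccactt
Cpox: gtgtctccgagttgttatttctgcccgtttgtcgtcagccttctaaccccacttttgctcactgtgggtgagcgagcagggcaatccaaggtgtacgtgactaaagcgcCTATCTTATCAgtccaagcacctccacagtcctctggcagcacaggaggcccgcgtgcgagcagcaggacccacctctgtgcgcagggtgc
Hbb-bs: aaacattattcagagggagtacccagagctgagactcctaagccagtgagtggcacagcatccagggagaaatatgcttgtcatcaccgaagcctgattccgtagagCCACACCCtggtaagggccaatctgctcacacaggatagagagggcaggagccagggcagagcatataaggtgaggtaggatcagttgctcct
Hbb-bt: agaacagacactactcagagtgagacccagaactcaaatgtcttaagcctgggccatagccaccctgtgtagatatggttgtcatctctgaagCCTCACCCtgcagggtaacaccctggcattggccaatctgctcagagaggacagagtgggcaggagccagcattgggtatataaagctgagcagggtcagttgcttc

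Hba-x, Hbb-y, Alas2, Klf1 and Epor each had 1 GATA word in the printed stretch and Cpox had 2. Other high genes with a promoter in the table, such as Blvrb and Hemgn, were not printed. The printed set therefore does not describe erythroid promoters as a whole. Of 14 promoters from the 15 genes with the highest median ratio (11 matched), 6 (42.9%) held a GATA word in the searched window. Hbb-bs and Hbb-bt had 0 GATA words and 1 CACCC-type word each. Alas2 and Epor each had 4 CACCC-type matches, some of which overlap. Over all 32851 promoters of the table, 26.5% held a GATA word and 45.9% a CACCC-type word. Among the tested genes with a promoter in the table (4222 of 5397), these shares were 16.3% and 64.0%. Genes called higher (194 of 249 matched, with 256 promoters) held a GATA word in 23.0% and a CACCC-type word in 71.1%, and genes called lower (519 of 672 matched) in 14.5% and 71.8%. A composite word, CTG followed after 7 or 8 bases by a GATA word, was in 6.25% of promoters of higher genes, 0.989% of lower genes and 1.14% of tested genes. A match describes the letters of the window only.

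The genes of haem synthesis were high as a group. Of 14 tested genes, 12 were higher, 0 lower and 2 neither, beside 4.61% higher over all tested genes. Their median log2 ratio was 3.48 against -0.27 over all tested genes. The list covers the enzymes from Alas2 to ferrochelatase and carriers of their intermediates. Cpox, which makes protoporphyrinogen in mitochondria, stood at 1289, 1122, 703, 765 and 978 CPM against 13.4 to 21.5 CPM. Fech, the ferrochelatase gene that inserts iron, reached 334 to 602 CPM against 10.0 to 13.8 CPM. The intermediate enzymes Urod, Uros and Ppox were 16.1-fold, 23.9-fold and 18.1-fold higher over summed libraries. Tmem14c, a porphyrin transporter gene of the inner mitochondrial membrane, was the most abundant of the list at 1978 to 3261 CPM, and Abcb10 was 37.9-fold higher. The glycine carrier gene Slc25a38 stood at 39.5 to 71.8 CPM against 27.3 to 33.6 CPM and did not meet the rule.

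Alad, the second enzyme of the pathway, had 1 library that stood apart. It was at 887, 2199, 847, 867 and 709 CPM in erythroid barcodes of libraries 1 to 5, so library 2 was more than 2-fold above each of the others. Its median per cell was 2210 CPM in library 2 and 722 to 913 CPM elsewhere. In other barcodes Alad was also highest in library 2, at 113 CPM against 55.7 to 79.6 CPM.

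Iron handling genes were raised in part: 8 of 14 tested were higher, 0 lower and 6 neither (median log2 ratio 1.31). Over all tested genes 4.61% were higher. Tfrc, the transferrin receptor that brings iron into the cell, stood at 249, 220, 180, 260 and 219 CPM against 20.7 to 32.0 CPM. Steap3, the endosomal ferrireductase, was 110-fold higher (interval 90.4 to 135), and Slc25a37, the mitochondrial iron importer mitoferrin 1, was 79.9-fold higher. Fth1, the ferritin heavy chain that stores iron (chromosome 19, 9980598 to 9985098), stood at 7573, 8317, 8481, 9288 and 12484 CPM, highest in library 5, against 887 to 1010 CPM. Its partner Ftl1, the ferritin light chain, stood at 5538 to 9301 CPM against 2217 to 4278 CPM and missed the rule in 1 or more libraries. Of the iron-sulphur cluster genes, Glrx5 and Nfs1 were higher (6.15-fold and 3.46-fold) and Iscu was not called.

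Of 17 tested erythroid transcription factor genes, 10 were higher, 0 lower and 7 neither (median log2 ratio 1.86), beside 4.61% higher over all genes. The uncalled genes were expressed on both sides, led by E2f4, a cell cycle factor, at 189 against 122 CPM. Klf1, the factor that drives many red cell genes, stood at 392, 471, 392, 430 and 388 CPM against 0.707 to 1.19 CPM. Gata1, the master factor of the lineage (chromosome X, 7959260 to 7978071), stood at 154, 178, 133, 139 and 107 CPM against 0.119 to 0.442 CPM. After thinning to 5000 non-globin UMIs, 52.1% of erythroid barcodes and 0.101% of others had a Gata1 UMI (93.5% and 0.518% before thinning). Tal1, Lyl1, Nfe2, Gfi1b, Zfpm1, Ikzf1 and Cbfa2t3 were 14.0-fold to 252-fold higher, and Lmo2, which endothelium also uses, 3.71-fold higher.

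The factors of earlier progenitors and of definitive cells were scarce. Gata2 had 6 UMIs (0.815 CPM) in all erythroid barcodes together, Myb 3 and the receptor gene Kit 2, where 1 UMI was worth 0.136 CPM. In other barcodes Gata2, Myb and Kit stood at 4.98, 3.02 and 4.54 CPM. Bcl11a and Sox6, which repress embryonic globins in definitive red cells, had 1 UMI each. These genes fell under the level needed for a call. Runx1 was the exception among progenitor genes, at 10.5, 8.66, 20.3, 6.84 and 7.46 CPM against 0.556 to 1.17 CPM. Its level in library 3 rested in part on barcodes with little globin. With at least 20% globin required, all 12 progenitor genes of library 3 together stood at 17.8 CPM.

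Epor, the erythropoietin receptor that keeps red cell precursors alive (chromosome 9, 21958897 to 21963506), stood at 202, 210, 174, 200 and 164 CPM against 0.262 to 0.682 CPM. Pim1, a kinase gene induced by such cytokine receptors, stood at 339, 312, 273, 268 and 466 CPM against 44.6 to 86.1 CPM. Of 5 tested genes of erythropoietin and KIT signalling these 2 were higher and 0 lower, beside 4.61% higher over all tested genes. Epor varied little between libraries, whereas Pim1 was highest in library 5.

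Genes of the red cell membrane and its skeleton were already present. Of 22 tested, 17 were higher, 0 lower and 5 neither (median log2 ratio 3.05), beside 4.61% higher over all tested genes. Slc4a1, the anion exchanger band 3, stood at 368, 419, 316, 320 and 444 CPM against 0.0603 to 0.417 CPM. The spectrin gene Sptb reached 73.3 to 117 CPM, and the ankyrin gene Ank1 43.3 to 75.6 CPM. Blood group genes had large ratios: Rhag, Rhd, Kel and Epb42, the last a skeletal linker, were 721-fold to 2288-fold higher. Cd24a, a surface gene that marks immature red cells, was not called and stood at 250, 155, 115, 68.4 and 93.7 CPM, highest in library 1, against 269 to 503 CPM in other barcodes.

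Cytosolic and antioxidant genes included several of the most abundant. Of 17 tested, 13 were higher, 0 lower and 4 neither (median log2 ratio 3.08), beside 4.61% higher over all tested genes. Car2, carbonic anhydrase 2 (chromosome 3, 14886273 to 14900770), stood at 3496, 3628, 2489, 2318 and 2454 CPM against 13.8 to 66.0 CPM. Blvrb, a biliverdin reductase, was 209-fold higher and Smim1, the gene of the Vel blood group antigen, 298-fold. Of the peroxide-removing enzymes, Prdx2 (3641 to 4293 CPM) and Gpx1 (2165 to 2765 CPM) were 4.79-fold and 8.92-fold higher. Sod1 and Gpx4 were not called. Bpgm, which makes the regulator of haemoglobin's oxygen affinity, was 12.1-fold higher.

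Among solute carriers 5 of 12 tested were higher and 0 lower, beside 4.61% higher and 12.5% lower over all tested genes. Slc38a5, a glutamine transporter gene, was 1268-fold higher, and the nucleoside carrier Slc29a1 9.31-fold. The glucose transporter gene Slc2a1 was not called, at 393, 248, 175, 137 and 84.1 CPM against 104 to 279 CPM. Library 1 was highest on both sides for this gene.

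Of 15 tested glycolysis genes, 1 was higher, 5 lower and 9 neither, beside 4.61% higher and 12.5% lower over all tested genes. Their median log2 ratio was -1.07 against -0.27 over all genes. Hk1, the hexokinase that red cells use, was the higher gene, at 54.4, 54.1, 41.6, 35.9 and 29.8 CPM against 5.90 to 7.83 CPM. Its relative Hk2 was lower, 9.91 against 76.9 CPM. Pkm, the pyruvate kinase of most tissues, stood at 1021, 734, 625, 377 and 207 CPM against 975 to 2583 CPM. The red cell isozyme gene Pklr, from the cytosol list, stood at 27.9, 73.5, 46.9, 82.0 and 109 CPM against 0.0238 to 0.141 CPM. The other lower genes were Eno1, Pgam1 and Ldhb. The summed level of the list was 7772 CPM in library 1 and 3669 CPM in library 5, and in other barcodes 15459.6 and 7434 CPM, so library 5 was the lowest on both sides.

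**Figure D3:**
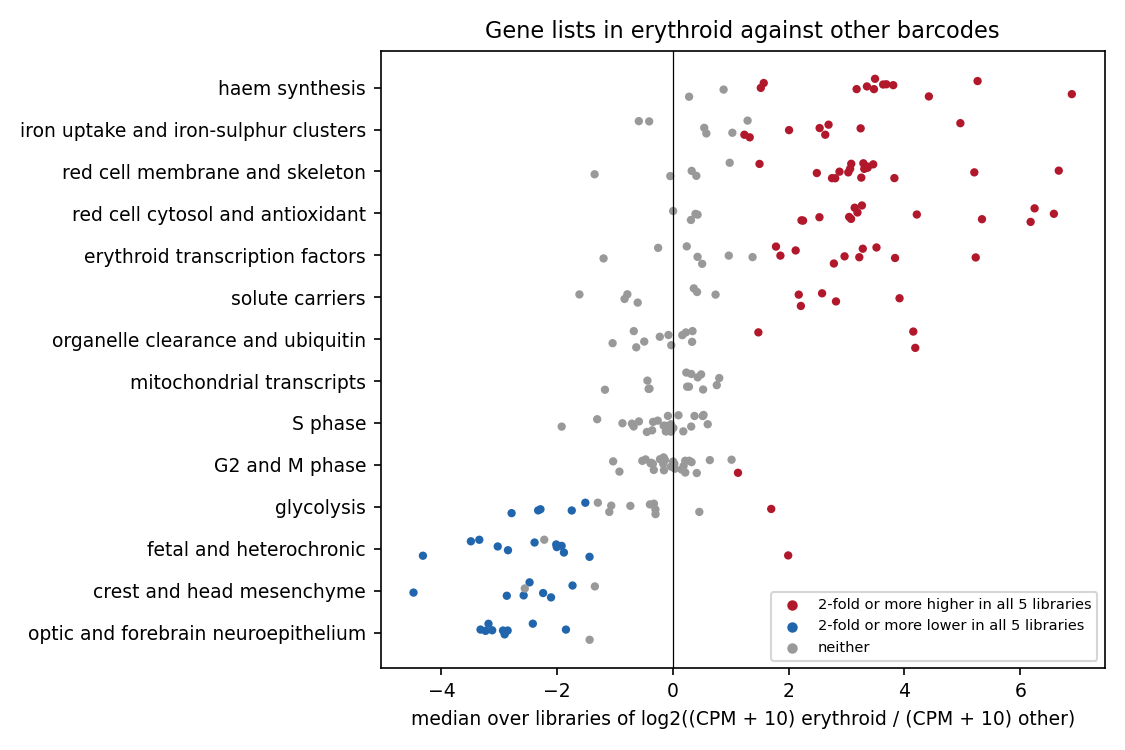
Each point is 1 tested gene of a list, placed by its median log2 ratio over the 5 libraries (CPM without globins plus 10, erythroid over other barcodes), with colour for the call. Genes of haem, iron, membrane and cytosol lie mostly right of 0, cell cycle genes around 0, and glycolysis, heterochronic and other cell types' genes mostly left of 0.

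Cell cycle RNA was near the level of the other barcodes. Of 25 tested S phase genes 0 were higher and 0 lower (median log2 ratio -0.12). Of 29 G2 and M phase genes 1 was higher and 0 lower (median -0.03), beside 4.61% higher and 12.5% lower over all tested genes. Pcna stood at 162 CPM against 155 CPM, and Top2a at 250 against 257 CPM. Mki67, a marker of cycling cells, was the higher gene, at 181, 209, 165, 144 and 313 CPM against 62.3 to 129 CPM. After thinning, 55.5% of erythroid barcodes (interval 49.3% to 61.6%) and 31.5% of the others had an Mki67 UMI, and 95.8% and 78.0% before thinning. Other cycle genes differed in direction at that depth: Ccnb1 was found in 65.0% and 46.8%, but Cdk1 in 49.4% and 60.3%, Rrm2 in 55.9% and 72.9% and Top2a in 57.4% and 64.1%. No phase was assigned to single cells.

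The cell cycle regulators differed more than the machinery. Ccnd3, the cyclin D gene used in red cell precursors, was the only higher gene among 9 tested, at 770, 765, 713, 620 and 593 CPM against 162 to 194 CPM. Ccnd1, Ccnd2, Cdk4, Cdkn1c and Mycn were lower, beside 4.61% higher and 12.5% lower over all tested genes. Ccnd2 stood at 55.0 against 513 CPM over summed libraries.

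Genes of late maturation were mixed. Among 14 tested genes of organelle clearance and ubiquitin, Trim10, Ube2l6 and Fbxo7 were higher and 0 were lower. Over all tested genes 4.61% were higher and 12.5% lower, the background for each list of this paragraph. Bnip3l, which removes mitochondria from maturing red cells, was not called, at 160 to 269 CPM against 178 to 284 CPM. Of 16 tested genes of the nucleus and its lamina, Lmna was higher (42.8 against 6.87 CPM) and Lmnb1 and the linker histone gene H1fx were lower, beside 12.5% lower over all tested genes. Lmnb1 lost its call under median-of-ratios scaling, with mitochondrial genes taken out of the total and with 20 CPM added. The nuclear RNA Malat1, at 3050 to 3433 CPM against 2189 to 4367 CPM, had a UMI in 100% of thinned erythroid barcodes. Of 13 mitochondrial transcripts 0 were called (median log2 ratio 0.28). Without globins they summed to 25436 CPM in erythroid barcodes against 18010 CPM in other barcodes, and the erythroid sum was higher in every library. Eif2ak1, the kinase that slows translation when haem is short, was 3.90-fold higher and 1 of 2 higher genes among 12 of translation control, with Pabpc4, while Zfp36l1 was lower.

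Heterochronic and imprinted growth genes were lower in 11 of 13 tested, with 1 higher, beside 12.5% lower and 4.61% higher over all tested genes. Lin28a and Hmga2 stood at 4.21 and 15.6 CPM against 122 and 309 CPM. H19, an imprinted long noncoding RNA, was the higher gene, at 609, 860, 990, 1686 and 1634 CPM against 194 to 471 CPM. Its neighbour on chromosome 7, Igf2, stood at 12.6 against 77.7 CPM over summed libraries and was not called.

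The erythroid barcodes of the 5 libraries differed in a small set of genes. A gene was called here when its highest library exceeded the lowest at least 3-fold after adding 10 CPM, with at least 50 CPM in the highest and Poisson intervals apart. That held for 53 of 2707 genes (1.96%) in erythroid barcodes and for 43 of 3135 (1.37%) in the other barcodes. Without library 5 the count in erythroid barcodes was 26. Of the 53, 10 also differed at least 3-fold the same way in other barcodes. Among these were the female-specific Xist, at 432 and 678 CPM in libraries 1 and 5 with 0 UMIs in the others, and the Y-linked Eif2s3y, found in libraries 2, 3 and 4 only. Both followed the same libraries in the other barcodes. The histone genes Hist1h2ap, Hist1h1e and Hist1h1b belonged to this shared set too.

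The metallothionein genes Mt1 and Mt2, whose products bind zinc and copper, had the largest differences between libraries after Xist. Mt1 (chromosome 8, 94179082 to 94180327) stood at 458, 830, 1218, 5136 and 7389 CPM in erythroid barcodes of libraries 1 to 5, and at 39.8 to 64.9 CPM in other barcodes. Mt2, its neighbour on chromosome 8, stood at 352, 652, 950, 4143 and 4945 CPM, against 13.8 to 54.9 CPM in other barcodes, where library 1 was highest. Libraries 4 and 5 were thus high for both genes. The median Mt1 level per cell was 84.3, 234, 918, 5272 and 7409 CPM. Cells overlapped all the same: in library 5 the lowest cell had 2806 CPM, while the highest cells of libraries 1 and 2 had 7341 and 10264 CPM. In library 1 a single cell held 34.5% of all Mt1 UMIs, and 34 of 47 cells had at least 1.

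Other differences of this kind ran in both directions. Nudt4, a diphosphoinositol polyphosphate phosphohydrolase gene, stood at 200, 318, 452, 974 and 956 CPM. In other barcodes it stood at 49.4, 56.3, 70.0, 103 and 87.6 CPM, so libraries 4 and 5 were highest there too, with a smaller difference. Hsd3b6, a steroid dehydrogenase gene, stood at 17.4, 28.1, 62.9, 24.8 and 122 CPM, with at most 0.143 CPM elsewhere. A single cell held 54.2% of the Hsd3b6 UMIs of library 3 and another 44% of those of library 1. The median cell had 0 CPM in libraries 1 to 4 and 64.7 CPM in library 5. Highest in library 1 and lowest in library 5 were Cited2, a cofactor gene needed for early blood (849 and 195 CPM), F2r, a thrombin receptor (91.4 and 8.52 CPM), Cpne7 (62.1 and 4.26 CPM) and Ddah1 (68.4 CPM and 0 UMIs). Pkm and Pklr, described above, went in opposite directions between libraries 1 and 5. In other barcodes Pkm was also higher in library 1 (2583 CPM) than in library 5 (975 CPM), and Pklr stayed at or below 0.141 CPM.

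Some genes were highest in library 4 and lowest in library 5. Asns, asparagine synthetase, stood at 404, 453, 380, 507 and 149 CPM. The pseudokinase gene Trib3 stood at 81.6, 113, 98.2, 120 and 32.0 CPM, the serine synthesis gene Psat1 at 135, 145, 117, 191 and 41.5 CPM, and the transcription factor gene Atf5 at 25.1, 28.8, 25.6, 69.2 and 6.39 CPM. In other barcodes library 5 was also the lowest for Asns (15.3 CPM against 34.8 to 57.3), Psat1 (101 against 135 to 152) and Trib3 (0.476 against 0.483 to 0.935), but not for Atf5. These genes were put together after their values were seen.

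The cytoskeletal genes Tmsb4x and Vim were uneven in another way. Tmsb4x stood at 184, 326, 742, 870 and 148 CPM, and Vim at 4.19, 4.16, 59.7, 64.1 and 18.1 CPM, so libraries 3 and 4 were high for both. These levels rested on erythroid barcodes with little globin. With at least 20% globin required, Tmsb4x stood at 148, 133, 152, 124 and 133 CPM and Vim at 3.04, 4.19, 23.7, 3.64 and 8.31 CPM, and neither gene was called between libraries. Pf4, a platelet gene, was called between libraries through a single cell of library 3, which held 99.1% of its 116 UMIs there.

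**Figure D4:**
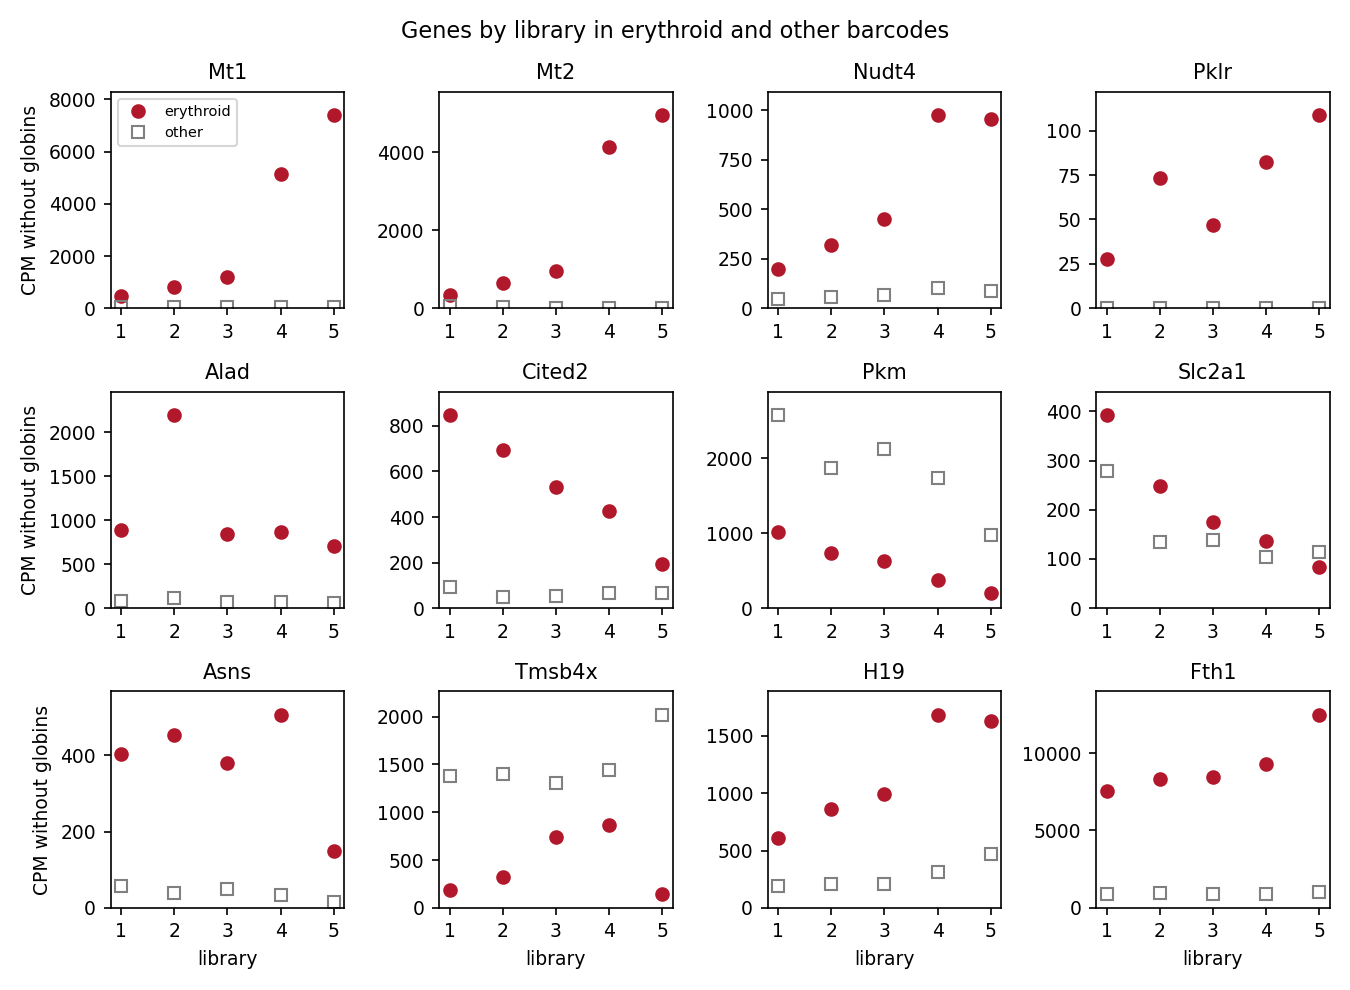
Level of 12 genes in CPM without globins (linear axes from 0), by library, with red circles for erythroid and open grey squares for other barcodes. Mt1, Mt2, Nudt4 and H19 are highest in libraries 4 and 5, Cited2, Pkm and Slc2a1 are highest in library 1, and Alad is highest in library 2.

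Erythroid barcodes with little globin carried genes of other cells. Only 13 of the 263 had under 20% globin, and their summed level of 10 endothelial genes was 911 CPM against 52.3 CPM in the 248 barcodes with 20% to 50%. The 10 megakaryocyte genes summed to 621 against 30.1 CPM, 12 neuroepithelial genes to 151 against 24.3 CPM, and 12 blood progenitor genes to 219 against 11.9 CPM. The excess sat in a few barcodes. A barcode of library 3 with 16.1% globin had 9102 CPM of megakaryocyte genes. For endothelial genes, 1 of library 4 with 13.9% had 3081 CPM and 1 of library 3 with 8.23% had 2398 CPM. The barcode of library 5 with 8.18% had 710 CPM of neuroepithelial genes. That of library 3 with 9.96% had 1790 CPM of crest and mesenchyme genes. Scrublet, a doublet caller, marked 62 of all 8194 barcodes (0.757%) and 8 of the 263, of which 3 were among these 13. Whether such barcodes are doublets or cells with 2 programmes was not tested.

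Calls against other barcodes were recounted without them. With at least 20% globin required, 250 barcodes gave 257 higher and 748 lower genes, and 245 and 661 of the original calls were among them. Of the 133 called genes described here 132 kept their call, and Itga2b, the integrin of megakaryocytes and early blood cells, lost it. Itga2b stood at 20.2, 21.5, 27.7, 16.2 and 17.0 CPM with all erythroid barcodes, and 39.5% of them had a UMI of it. Genes differing between libraries numbered 44 without the 13 barcodes, and 38 of the 53 were among them. The 15 that lost this call included Tmsb4x, Vim, Pf4, Eif2s3y, Hist1h2bc and Alad. Eif2s3y reached 49.997 CPM in its highest library and Alad a ratio of 2.95, just under the limits.

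**Figure D5:**
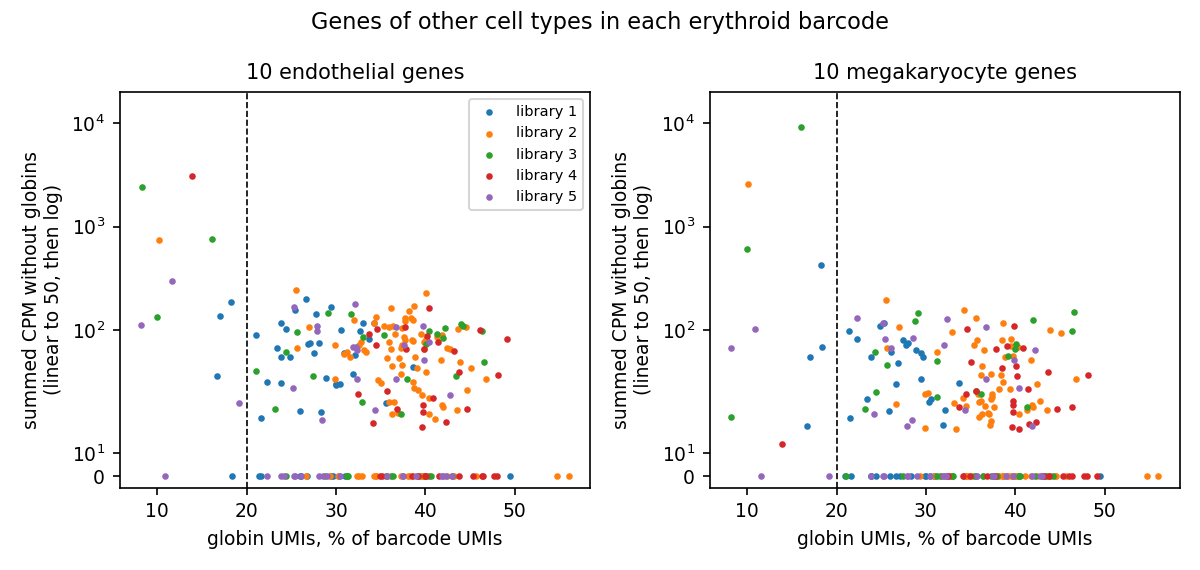
Each point is 1 erythroid barcode, placed by its globin share and by its summed CPM without globins over 10 endothelial or 10 megakaryocyte genes (axis linear to 50, then log), coloured by library; the dashed line marks 20% globin. Barcodes above 1000 CPM lie left of the line, and those right of it reach at most 244 CPM.

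Among barcodes with 20% globin or more, some genes went with the globin share. Ddah1 went from 52.4 CPM in barcodes with 20% to 30% globin (58 barcodes) to 4.84 CPM in those with 40% or more (64 barcodes). Within library 2 alone, with 7 barcodes in the lowest range and 25 in the highest, it stood at 68.5 and 12.8 CPM, from 15 and 8 UMIs. Hist1h2bc, a histone gene whose transcripts can be polyadenylated, stood at 16.5 and 65.9 CPM, and in library 2 at 4.56 CPM, which is 1 UMI, and 127 CPM. Ifitm2, an interferon-induced membrane protein gene, stood at 55.4 and 12.7 CPM, and in library 2 at 45.6 and 20.8 CPM, from 10 and 13 UMIs. Xist and Mt2 were also among the 5 genes with the largest ratios. Ddah1, Hist1h2bc, Xist and Mt2 were all called between libraries, and the ranges draw on different libraries. Of the barcodes with 20% to 30% globin, 29 were from library 1 and 0 from library 4. Within library 2 Mt2 stood at 858 CPM in the lowest and 1023 CPM in the highest range. These ranges are parts of a continuous share, not cell types.

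Blood and endothelium share a mesodermal origin, so the erythroid barcodes were also set beside 404 other barcodes with at least 3 of 6 endothelial genes detected. Over summed libraries 439 of 5619 genes (7.81%) were at least 2-fold higher in erythroid barcodes and 1301 (23.2%) at least 2-fold lower. Mt2, Alas2, Blvrb and Cited4 were among the 5 highest. The sums weight libraries differently on each side, and for Mt2 the ratio was 92.7, 222, 307, 1159 and 961 in libraries 1 to 5. Gata1 was 78.7-fold higher (interval 53.8 to 120) and Epor 124-fold (interval 81.9 to 199). The factors shared by both lineages were closer: Tal1 stood at 140 against 33.8 CPM, Lyl1 at 125 against 62.8 CPM, and Lmo2 at 86.6 against 326 CPM, the reverse order. Gata2 stood at 0.815 against 21.3 CPM. Kdr, Cdh5 and Tek, which partly chose the endothelial barcodes, were at 7.60, 4.89 and 1.36 CPM in erythroid barcodes, and 4 of these met the endothelial rule themselves.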

How the data were processed

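Droplet libraries of 5 embryos were analysed from the UMI counts the authors deposited, whole numbers per gene and barcode with no normalisation seen in the values. The submitters' processing notes name Cell Ranger and mm10 (GRCm38) as tool and build; how cells were called was not given in the sources used here. Cells and gene lists were chosen with earlier results of these data known. CPM was computed from summed UMIs without globins, with Python 3.11.15, numpy 2.4.6, pandas 2.3.3 and scipy 1.17.1, and Scrublet ran in scanpy 1.11.5. Libraries were told apart by barcode suffix and left unassigned to stages, so no test was made. Intervals (95%, Clopper-Pearson or Poisson) cover counting error only; libraries held 937278 to 2885313 non-globin erythroid UMIs, and 1 UMI was worth 0.347 to 1.07 CPM. Genes were named by rank (15 highest, 10 lowest, 15 most different between libraries) or as called members of 27 lists, or the most abundant uncalled ones; genes outside that rule, such as Runx1 and Igf2, were chosen after their values were seen. The calling rules were run on simulated library sums with planted changes larger than the limits of the rules. The simulation held counting error only, so spread between cells or embryos was not tested. Alternatives covered the globin and mitochondrial limits, scaling, added CPM, low-value filter, doublets and leaving out each library. Gene positions are from GENCODE M21 and promoters from RefSeq, both GRCm38. Values of a few list genes are not reported here.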

Additional observations from a re-analysis of the deposited data

Results flagged for a closer look

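Globin RNA was also found in barcodes that the mitochondrial limit left out. Of the 22 barcodes with over 10% mitochondrial UMIs, 3 had at least 5% globin: 2 of library 1 with 13.3% and 18.3%, and 1 of library 5 with 34.3%. They held 8199, 8040 and 8164 UMIs, of which 10.8%, 13.5% and 11.5% were mitochondrial, and are flagged as signal outside the main measurement, above the globin share of the other barcodes.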

How the results depend on the processing

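The number of erythroid barcodes ran from 250 to 266 over the other globin and mitochondrial limits. Counting globins in the total gave 160 higher and 1136 lower genes, 20 CPM added gave 392 lower, a minimum of 40 CPM gave 427 lower, and summing libraries gave 374 higher and 1014 lower. Median-of-ratios scaling gave 281 higher and 588 lower, with a median log2 ratio of -0.16. In the lists, counting globins left 0 glycolysis and 0 G2 and M phase genes higher and made 1 transcription factor, 3 S phase and 2 G2 and M phase genes lower. Adding 5 CPM made 1 transcription factor and 1 S phase gene lower, and adding 20 CPM left 0 glycolysis and 0 G2 and M phase genes higher. Summing libraries made 1 transcription factor, 1 membrane, 8 glycolysis, 2 S phase and 1 G2 and M phase genes lower and 2 G2 and M phase genes higher. Requiring 20% globin made 1 S phase gene lower, and removing doublets 1 transcription factor. Leaving out each library in turn gave 0 to 1 lower genes in the membrane and transcription factor lists and 0 to 2 in the S phase list. It gave 26 to 48 genes differing between libraries, with the 26 reached without library 5. Of the 133 called genes of the lists and rankings, 20 lost their call with 20 CPM added, among them Lmo2, Hk1, Mki67, Eif2ak1, Pabpc4, Fbxo7 and Nfs1, and 13 with a minimum of 40 CPM, among them Ikzf1 and Cbfa2t3. Lmnb1 and Cldn5 lost it under median-of-ratios scaling and without mitochondrial genes, Itga2b without library 3 and Xk without library 5. No called gene reversed its direction under any alternative run. The causes were not tested. No paired analysis was possible because each stage had 1 sample. Genes under about 20 CPM could not be called, and with 38 to 100 erythroid barcodes per library single cells can carry a gene, as for Pf4.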

Other observations

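A single cell of library 2 stood apart in its globins. It held 10.1% globin, with 1406 Hbb-bh1 and 387 Hbb-y UMIs, a ratio of 3.63 against a median of 0.603 in that library. Its non-globin total was 18783 UMIs, among them 1 of Alas2 and 0 of Klf1, and it had 2556 CPM of megakaryocyte and 745 CPM of endothelial genes. The next highest ratio was 2.20, in a cell of library 1 with 28 Alas2 and 16 Klf1 UMIs.

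The globin UMIs of other barcodes had another make-up than those of the erythroid cells, and their source was not tested. Hba-a1 took 5.06% to 8.01% of globin UMIs in other barcodes against 9.19% to 14.9% in erythroid cells, and Hbb-y took 41.0% to 53.1% against 34.2% to 41.5%. The ratio of Hba-a1 to Hba-a2 was 1.09 to 1.65 in other barcodes and 1.90 to 2.17 in erythroid cells. These values come from 8975 to 28764 globin UMIs per library in other barcodes.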
